A study of Mus musculus with 66 samples.

Results

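The regions described here are the places near gene starts at which the histone variant H3.3 was listed as gained or lost in mouse neurons after depolarisation, and in adult mouse hippocampal nuclei after enriched housing. They were all rows with a promoter label in 5 tables of H3.3 differences, one table per comparison, and numbered 647 of the 4651 listed H3.3 regions (13.9%). They carried the names of 638 genes, and 281 were gained while 366 were lost. The label did not always mark a gene start. Within 3 kb of their own gene's start lay 514 members, while 133 did not, as described below. No measured level entered the choice beyond the listing itself.

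All mice were C57bl/6. Cortical neurons were taken from E16.5 embryos, kept for 8 days in vitro and depolarised with isotonic KCl for 30 min, 2 hr or 5 hr, each set against unstimulated neurons of the same time point, with 3 libraries a group. Nuclei were sorted from hippocampus of mice of about 7 weeks by the neuronal nuclear protein NeuN. NeuN-positive (NeuN+) nuclei came from enriched or normally housed mice, 2 libraries a group, and NeuN-negative (NeuN-) nuclei from enriched or normally housed mice, 3 libraries a group. The enrichment is stated as 4 weeks for NeuN+ nuclei. One antibody lot against H3.3 served all groups. NeuN- nuclei are a mixture of glia and other cells, and a culture or a sort holds several neuron types, so that each value is a mean over cell types. The tables list differences and not levels, so the labelled cell types could not be checked against marker genes.

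Histone H3.3 is the replacement form of histone H3. It is placed into chromatin outside DNA replication, by HIRA at active gene starts and gene bodies and by DAXX with ATRX at repeats, and it is therefore the main newly placed H3 of cells that no longer divide. Active gene starts are known for rapid exchange of H3.3, so that a lower signal there can accompany either silent or very active chromatin, and the direction of change is not a reading of transcription.

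Each listed region was one window or a few merged windows, 200 bp long at the median and in 434 of 647 members. The following 6 sequences show what such regions look like. They are, for the direction shown, the member with the smallest adjusted p among those at protein-coding genes that were at most 300 bp long, lay within 1 kb of the gene's start and touched no untranslated region, with ties broken by the larger fold change. Members at small RNA genes, some of which had smaller adjusted p, were not considered for printing. Each is given on the plus strand of build mm9, 5′ to 3′, with CpG dinucleotides in capitals. The Usp28 region lies at chr9:48807961-48808160, Bnip2 at chr9:69838121-69838320, Tdrd6 at chr17:43766221-43766440, Ephx1 at chr1:182946861-182947140, Catsperg1 at chr7:29986361-29986600 and Sdcbp at chr4:6303301-6303500.
Usp28, lost at 30 min: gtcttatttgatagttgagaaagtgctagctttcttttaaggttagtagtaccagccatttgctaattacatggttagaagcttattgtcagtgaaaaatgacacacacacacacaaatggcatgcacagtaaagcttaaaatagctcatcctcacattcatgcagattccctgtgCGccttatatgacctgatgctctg
Bnip2, lost at 2 hr: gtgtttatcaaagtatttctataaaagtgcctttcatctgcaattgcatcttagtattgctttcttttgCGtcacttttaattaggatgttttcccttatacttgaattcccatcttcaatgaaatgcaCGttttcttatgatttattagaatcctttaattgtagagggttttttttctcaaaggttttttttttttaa
Tdrd6, gained at 5 hr: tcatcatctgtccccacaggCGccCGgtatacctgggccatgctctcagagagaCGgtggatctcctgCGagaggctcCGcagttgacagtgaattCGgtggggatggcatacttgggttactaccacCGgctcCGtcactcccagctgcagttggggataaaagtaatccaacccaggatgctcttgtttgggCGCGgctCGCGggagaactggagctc
Ephx1, lost at 5 hr: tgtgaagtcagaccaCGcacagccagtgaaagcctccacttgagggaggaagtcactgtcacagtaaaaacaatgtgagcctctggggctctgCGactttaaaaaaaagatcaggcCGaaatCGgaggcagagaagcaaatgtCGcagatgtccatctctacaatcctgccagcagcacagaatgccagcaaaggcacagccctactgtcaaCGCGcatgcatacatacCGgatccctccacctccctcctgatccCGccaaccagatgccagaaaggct
Catsperg1, gained in NeuN+ nuclei: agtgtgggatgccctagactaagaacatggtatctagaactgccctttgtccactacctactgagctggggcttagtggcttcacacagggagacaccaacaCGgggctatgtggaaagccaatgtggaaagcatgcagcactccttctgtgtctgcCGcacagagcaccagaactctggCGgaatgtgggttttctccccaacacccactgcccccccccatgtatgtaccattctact
Sdcbp, gained in NeuN- nuclei: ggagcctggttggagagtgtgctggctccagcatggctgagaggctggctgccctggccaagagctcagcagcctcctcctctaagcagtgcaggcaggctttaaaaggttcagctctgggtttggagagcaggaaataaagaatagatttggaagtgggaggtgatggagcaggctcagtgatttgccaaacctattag
These 6 regions held 1, 2, 12, 9, 3 and 0 CpG in the order shown. The 2 from 5 hr were the richest, and the Bnip2 region, at 28.5% GC, was the poorest in GC.

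The promoter label did not mean the same in every table. In the 30 min, 2 hr and NeuN- tables, the deposited distance was counted from the lower coordinate of the gene in 100% of regions, whichever strand the gene was on. In the 5 hr and NeuN+ tables it was counted from the start given by the gene's strand. For a gene on the minus strand the lower coordinate is the gene's end. Of the 179 members of the first 3 tables named after minus-strand genes, all lay within 3 kb of the gene's end, 46 lay within 3 kb of its start and 133 did not. Of the 179, 107 were not within 3 kb of any start in the GENCODE vM1 annotation. Among the 133, the centre lay in a 3′ untranslated region in 27 (20.3%), against 12 of the 514 members within 3 kb of their own gene's start (2.33%). Results below are therefore given for all members and for those 514, of which 56 were in the 30 min table, 83 in the 2 hr table, 83 in the 5 hr table, 201 in the NeuN+ table and 91 in the NeuN- table. Distances below are from the strand-aware start, and negative ones are upstream.

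**Figure D1:**
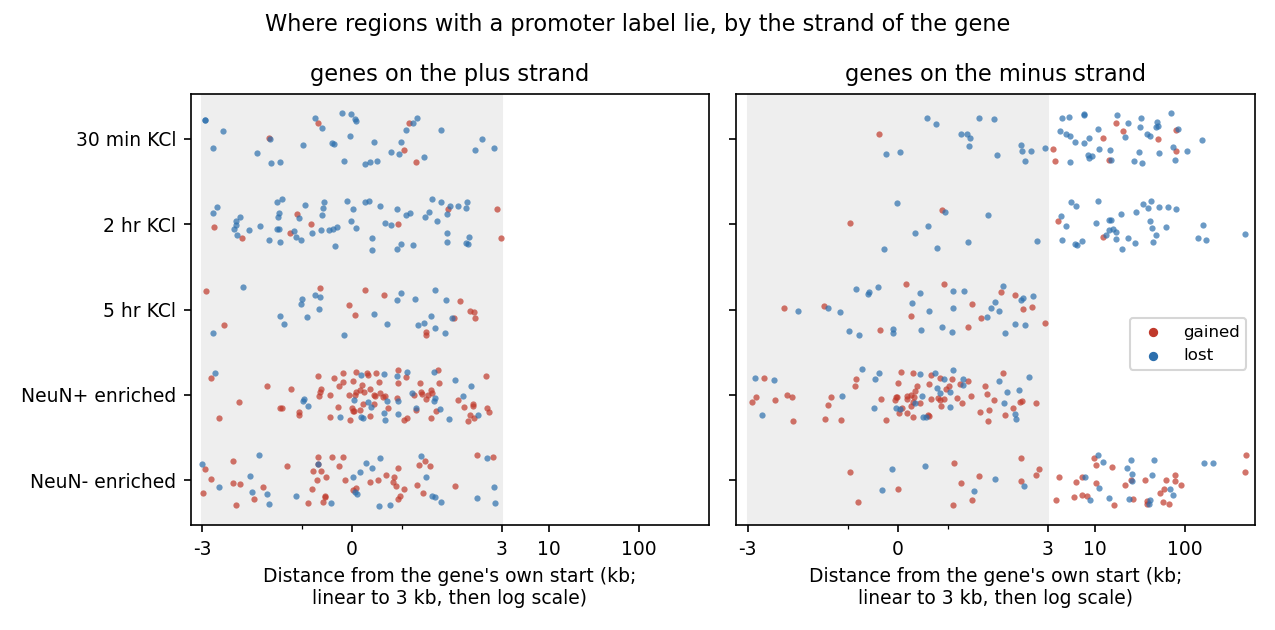
Each point is 1 region with a promoter label, placed by its distance from the start of its own gene in kb (linear to 3 kb, then a log scale) for genes on the plus strand and on the minus strand. Red points were gained and blue points lost, the grey band marks 3 kb on either side, and the scatter within a row has no meaning. In the 30 min, 2 hr and NeuN- rows, 133 of 179 points for minus-strand genes lie beyond the band.

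Library values were low. In lost members, the deposited values corresponded to a median of 4 reads per library after 30 min of KCl against 13 in controls, and to 3 against 12 at 2 hr. In gained NeuN+ members they corresponded to a median of 25 reads in enriched mice against 4.5 in normally housed mice, and in gained NeuN- members to 6 against 1. These read numbers come from the smallest step between deposited values, which was the worth of 1 read in every library. In enriched NeuN- libraries that step ran between 0.54 and 2.64, so that 1 library was much shallower than the others. Every listed region, member or not, had library values that did not overlap between its groups (100% in each table) and a change of at least 3-fold, since both went with the listing. Non-overlap and fold are thus no finding about promoters. The authors' adjusted p, with 0.05 as the threshold for a call, was used as deposited.

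Depolarisation for 30 min and 2 hr went mainly with listed losses at promoter-labelled regions. At 30 min, 15 members were gained and 88 lost. Calls in the authors' deposited table numbered 15 gained, 14.6% of the 103 members beside 19.9% of all listed regions, and 84 lost, 81.6% beside 78.6%. At 2 hr, 13 were gained and 109 lost, and all were called in the authors' deposited table, as 14.2% of all listed regions were called gained and 85.3% lost. The gained share was 14.6% of members (95% exact interval 8.39 to 22.9) at 30 min, against 20.1% of all listed regions. It was 10.7% (5.80 to 17.5) at 2 hr, against 14.4%. Restricted to members within 3 kb of their own start, it was 10.7% (6 of 56) and 13.3% (11 of 83). At both times the share of all members lay below that of the whole table, with an interval that included it. Sequencing lane numbers in the sample titles were the same within, and different between, the KCl and control groups at both times, so that lane and treatment cannot be told apart. Intervals cover the counting of regions only.

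By 5 hr the listed losses were less one-sided and almost none were called. There were 28 gained and 55 lost members. The authors' deposited table called 0 of the gained members, beside 1.65% of all listed regions, and 2 of the lost ones (2.41% of members), beside 1.35%. Without adjustment all 28 gained and 55 lost members had a p of 0.05 or less there, as goes with a list made on p. Each lane number at 5 hr was shared by 1 KCl and 1 control library, unlike at the earlier times. The gained share was 33.7% (23.7 to 44.9), against 44.2% of all listed regions. With 1 annotation applied to every table and any listed region within 3 kb of a GENCODE vM1 start taken, the 5 hr share was 45.5% of 156 regions, so that the lower share of the labelled members was not seen with that definition. Under the same definition the share was 9.09% at 30 min (4.01 to 17.1) and 12.4% at 2 hr (7.11 to 19.6). All listed regions had 20.1% and 14.4%, so that at 30 min the interval lay below the table's share.

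Enriched housing went mainly with listed gains. In NeuN+ nuclei 140 members were gained and 61 lost. Calls in the authors' deposited table were 134 gained (66.7% of members, beside 70.1% of all listed regions) and 60 lost (29.9%, beside 27.7%). In NeuN- nuclei 85 were gained and 53 lost, and all were called in the authors' deposited table, where 70.6% of all listed regions were called gained and 29.3% lost. The gained share was 69.7% (62.8 to 75.9) in NeuN+ members, against 71.8% of all listed regions. It was 61.6% (52.9 to 69.7) in NeuN- members, against 70.7%. By class in NeuN- nuclei, it was 65.0% of 20 members labelled as proximal (40.8 to 84.6), 73.5% of 49 labelled as within 1 kb (58.9 to 85.1) and 52.2% of 69 labelled as within 3 kb (39.8 to 64.4). These intervals overlapped, and the shares did not follow the order of the distances. Among those near their own start the shares were 60.0% of 15, 77.4% of 31 and 53.3% of 45. In NeuN+ nuclei, leaving out enriched library 1 and asking for a 3-fold difference of the remaining means left 38 of the 60 lost calls and moved the gained share to 77.1%. The adjusted p was kept as deposited there. Lane numbers differed between the housing groups in both sorts, so that lane and housing cannot be told apart.

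**Figure D2:**
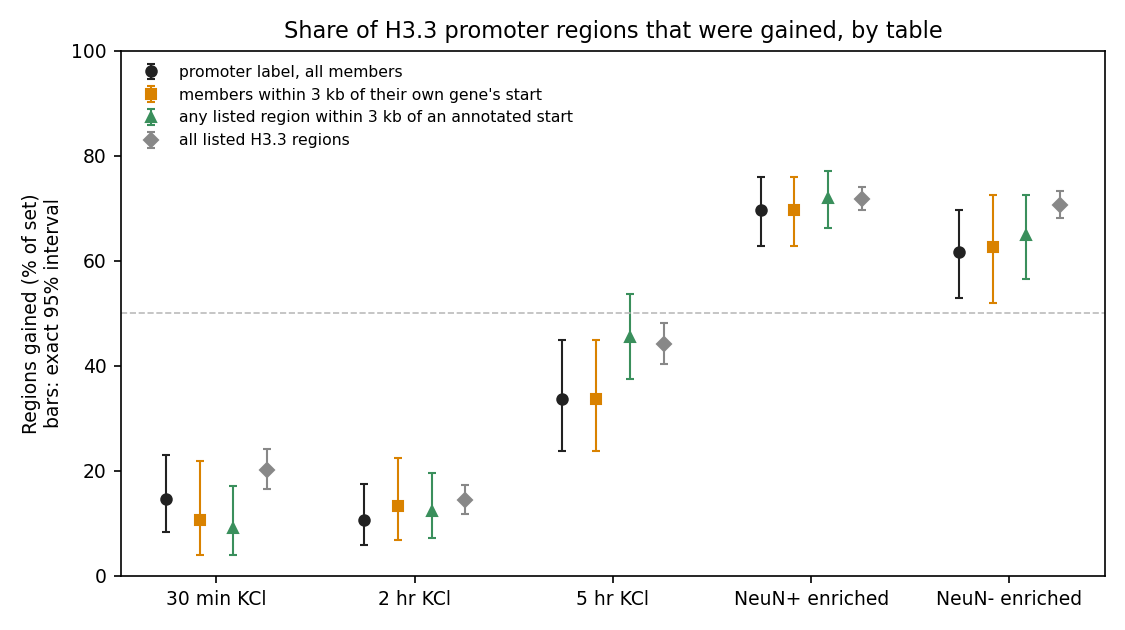
The share of regions that were gained (%, y axis) is plotted for each table, for all members with a promoter label (black), members within 3 kb of their own gene's start (orange), any listed region within 3 kb of an annotated start (green) and all listed H3.3 regions (grey). Bars are exact 95% intervals from the counts of regions. Shares of members ran from 10.7% at 2 hr to 69.7% in NeuN+ nuclei and lay below the grey points in every table. Their intervals reached the grey points except in NeuN- nuclei. There the orange interval (51.9 to 72.6) and the green interval (56.6 to 72.5) did include the grey point. At 5 hr the black and green points were 33.7% and 45.5%.

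The members nearest to a start were few. Within 250 bp of the own start, 0 of 8 regions were gained at 30 min and 0 of 5 at 2 hr, against 3 of 6 at 5 hr, 27 of 34 in NeuN+ nuclei and 5 of 10 in NeuN- nuclei. Over all listed regions the gained shares were 20.1%, 14.4%, 44.2%, 71.8% and 70.7% in the same order. In the following values, given as normalised counts, a group's libraries are listed first and then its mean ± SD, over 3 libraries a group or 2 for NeuN+ nuclei.

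At 30 min all 8 regions of this kind were lost, and 3 of them are given here as examples chosen after their values were seen. Tanc2, a postsynaptic scaffold protein, had 4.32, 5.26 and 5.15 in KCl neurons (4.91 ± 0.514), against 27.89, 17.49 and 14.65 in control neurons (20.0 ± 6.97). Rem2, a small GTPase that restrains calcium channels, had 2.59, 2.10 and 2.06 in KCl neurons (2.25 ± 0.295), against 12.68, 10.82 and 10.74 in control neurons (11.4 ± 1.10). Stau1, which encodes an RNA-binding protein that carries messages into dendrites, had 3.46, 1.05 and 6.17 in KCl neurons, against 11.41, 14.16 and 11.72 in control neurons. All KCl libraries lay below all control libraries at these genes. The authors' deposited table gave log2 fold changes of -2.03, -2.34 and -1.80 with adjusted p of 0.0174, 0.0198 and 0.0299. The strongest call near an own start at 30 min was Usp28, a deubiquitinase, 394.5 bp upstream of its start. It had 0.86, 2.10 and 1.03 in KCl neurons (1.33 ± 0.672), against 11.41, 11.66 and 11.72 in control neurons (11.6 ± 0.164), which was 1, 2 and 1 reads against 9, 14 and 12. Its log2 fold change in the authors' deposited table was -3.12, with an adjusted p of 0.00552. Bmi1, a subunit of the Polycomb complex PRC1, had the same adjusted p of 0.00552 there, at a region 984.5 bp upstream that lay in the 3′ untranslated region of its neighbour Commd3. It had 3.46, 4.21 and 4.12 in KCl neurons, against 20.29, 15.82 and 15.63 in control neurons. Sft2d3, a gene of vesicle transport, had an adjusted p of 0.00552 too, and Ncor1, the nuclear receptor corepressor, shared it in the authors' deposited table, but its region lay in an intron 38566.5 bp from the start and near the gene's end.

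Of the 15 gains at 30 min, 6 lay within 3 kb of their own gene's start. The label of minus-strand genes was counted from the gene's end in this comparison, and 10 of the 15 gains were at such genes, as were 54 of the 88 losses. The 4 gains with the smallest adjusted p were at AL929160.1, Cep350, Sh3gl1 and Dtnbp1. Of these, the region at AL929160.1, an annotated miRNA inside an intron of Tanc1, was within 3 kb of its own start. It had 15.57, 16.82 and 14.41 in KCl neurons (15.6 ± 1.21), against 5.07, 3.33 and 3.91 in control neurons (4.10 ± 0.886). The log2 fold change was 1.93 and the adjusted p 0.0128 in the authors' deposited table. The Cep350 region lay in that gene's 3′ untranslated region, 14392.5 bp from the start. For Dtnbp1, which encodes dysbindin, the region lay 80698.5 bp from the start and in the 3′ untranslated region of Jarid2.

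At 2 hr gains were again few, and those with the smallest adjusted p included Slc2a1, Col2a1 and Pak6. Slc2a1, which encodes the glucose transporter GLUT1, was gained 1105.5 bp upstream of its start. It had 13.78, 12.12 and 13.62 in KCl neurons (13.2 ± 0.916), against 2.04, 4.17 and 2.45 in control neurons (2.89 ± 1.13). Col2a1, a collagen gene, was gained 886.5 bp downstream, with 16.54, 11.37 and 14.98 in KCl neurons, against 4.07, 2.50 and 4.91 in control neurons. Pak6, a protein kinase gene, was gained 2990.5 bp downstream. Log2 fold changes of 2.19, 1.90 and 2.20 had adjusted p of 0.0135, 0.0165 and 0.0176 in the authors' deposited table. Among the losses, Pcgf3, another PRC1 subunit, had 2.76, 1.52 and 1.36 in KCl neurons (1.88 ± 0.766), against 12.22, 12.50 and 12.27 in control neurons (12.3 ± 0.149). Pkhd1l1 had 0, 3.03 and 1.36 in KCl neurons (1.46 ± 1.52), against 9.16, 13.33 and 12.27 in control neurons (11.6 ± 2.17). Bnip2 had 0.92, 0.76 and 2.72 in KCl neurons (1.47 ± 1.09), against 10.18, 10.83 and 11.05 in control neurons (10.7 ± 0.452). These 3 lost regions shared an adjusted p of 0.00757 in the authors' deposited table, with log2 fold changes of -2.71, -2.98 and -2.87, and all 3 lay downstream of their starts in introns. The region of Id2, an inhibitor of bHLH transcription factors, was lost at an adjusted p of 0.010 in the authors' deposited table but lay 1915.5 bp beyond the end of the gene. The 5 regions within 250 bp of a start were those of 1110057P08Rik, Gm8145, Aktip, Gas2 and Fscn2, an actin-bundling protein of photoreceptors, and all 5 were lost by normalised counts. At Fscn2 the deposited ratio to input went the other way, 1.55 in KCl and 0.84 in control neurons.

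At 5 hr the 2 called members were both lost. Rgmb, a co-receptor of bone morphogenetic proteins that also binds neogenin, had 4.92, 3.51 and 2.98 in KCl neurons (3.80 ± 1.00), against 14.16, 16.40 and 21.34 in control neurons (17.3 ± 3.67). Ephx1, the microsomal epoxide hydrolase, had 5.90, 2.63 and 3.97 in KCl neurons (4.17 ± 1.64), against 15.35, 18.45 and 16.49 in control neurons (16.8 ± 1.57). Their log2 fold changes of -2.19 and -2.01 had adjusted p of 0.0347 and 0.0399 in the authors' deposited table. Ercc6, the Cockayne syndrome B protein of transcription-coupled repair, had 14.75, 14.05 and 11.91 in KCl neurons and 3.54, 5.13 and 0.97 in control neurons, and was not called (adjusted p 0.0797 in the authors' deposited table). Podn and 4432412L15Rik had an adjusted p of 0.0851 in the authors' deposited table. Among uncalled losses, Tceb1, which encodes elongin C, and Zfand5 had an adjusted p of 0.0643 there.

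In NeuN+ nuclei, where the label was counted by strand, 27 of the 140 gains lay within 250 bp of the start. Foxn4, a forkhead transcription factor gene, was gained 67.5 bp downstream of its start, with 30.61 and 27.40 in enriched mice (29.0 ± 2.27), against 9.03 and 6.16 in normally housed mice (7.59 ± 2.03). Nfe2l2, which encodes the antioxidant regulator NRF2, was gained 62.5 bp upstream of its start, with 22.76 and 24.83 in enriched mice (23.8 ± 1.46), against 3.01 and 8.22 in normally housed mice (5.62 ± 3.68). Usp21, a deubiquitinase gene, had 26.69 and 32.54 in enriched mice, against 6.02 and 11.30 in normally housed mice. The enriched libraries lay above the normally housed ones at each of these, and the authors' deposited table gave log2 fold changes of 1.93, 2.08 and 1.77 with adjusted p of 0.0116, 0.0238 and 0.0286. Ppp1r3b, a glycogen-targeting subunit of protein phosphatase 1, Shroom3, an actin-binding protein, and Spg20, which encodes spartin, were also gained within 250 bp. Their adjusted p in the authors' deposited table were 0.0299, 0.0379 and 0.0418. The gain with the smallest adjusted p of all members was 5730460C07Rik, 2839.5 bp upstream, with 43.96 and 42.81 in enriched mice (43.4 ± 0.813), against 9.03 and 13.35 in normally housed mice (11.2 ± 3.05). It had a log2 fold change of 1.95 and an adjusted p of 0.000853 in the authors' deposited table. Gm16342 and 5430425J12Rik followed, with log2 fold changes of 2.60 and 2.07 and adjusted p of 0.0141 and 0.0144 in the authors' deposited table.

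Of the 61 NeuN+ losses, 7 were within 250 bp of a start. Among them, Eif2a, a translation initiation factor gene, had 2.35 and 6.85 in enriched mice (4.60 ± 3.18), against 21.08 and 17.46 in normally housed mice (19.3 ± 2.56). Cdh10, a cadherin gene of synaptic adhesion, had 3.14 and 5.99 in enriched mice (4.57 ± 2.02), against 18.07 and 17.46 in normally housed mice (17.8 ± 0.431). Nup62, a nuclear pore gene, had 6.28 and 2.57 in enriched mice, against 19.57 and 17.46 in normally housed mice. All 3 were called, with log2 fold changes of -2.07, -1.96 and -2.07 and adjusted p of 0.0313, 0.0379 and 0.0316 in the authors' deposited table. The 4 losses with the smallest adjusted p were 9030425E11Rik, Ube2f, Slc38a2 and Rtn4rl2. Ube2f carries NEDD8 to its targets, Slc38a2 imports neutral amino acids, and Rtn4rl2 is a relative of the Nogo receptor. Slc38a2 was lost 348.5 bp downstream of its start in a region of 74.6% GC, with 4.71 and 6.85 in enriched mice, against 21.08 and 25.68 in normally housed mice. Its adjusted p in the authors' deposited table was 0.0173.

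In NeuN- nuclei the smallest adjusted p belonged to members at small RNA genes and the mitochondrial genome, where reads may be shared with near-identical copies. The Y_RNA.1 region had 6.98, 13.21 and 8.13 in enriched mice (9.44 ± 3.32), against 0.95, 0.68 and 0 in normally housed mice (0.543 ± 0.490). The mt-Nd3 region, 940 bp of the mitochondrial genome, had 16.29, 39.64 and 30.90 in enriched mice, against 139.33, 84.47 and 76.86 in normally housed mice. Both had an adjusted p of 0.00201 in the authors' deposited table. Small RNA genes named 8 NeuN- members (6 gained) and 7 NeuN+ members (6 gained), against 3 at 30 min, 5 at 2 hr and 0 at 5 hr. The mitochondrial genome does not carry nucleosomes, and its 2 members were mt-Nd3 and mt-Nd6.

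Elsewhere in NeuN- nuclei, Stmn2, which encodes a neuronal stathmin and was on the list of neuron markers, was gained 73.5 bp downstream of its start. It had 5.82, 13.21 and 4.88 in enriched mice (7.97 ± 4.56), against 0, 1.35 and 0.90 in normally housed mice (0.750 ± 0.687), that is 5, 5 and 9 reads against 0, 2 and 1. Sdcbp, which encodes the adaptor syntenin, was gained 587.5 bp upstream, with 8.14, 5.28 and 8.13 in enriched mice (7.18 ± 1.65), against 0.95, 1.35 and 0 in normally housed mice (0.767 ± 0.693). All enriched libraries were higher at both, with log2 fold changes of 3.41 and 3.23 and adjusted p of 0.00776 and 0.00361 in the authors' deposited table. Ccr9, a chemokine receptor gene, had 0 in all 3 enriched libraries, against 5.69, 6.08 and 7.23 in normally housed mice. With 3 reads over the enriched group as the floor, it was at least 4.38-fold lower. The Rac2 region was also at 0 in enriched mice and at least 5.01-fold lower, but lay 11112.5 bp from that gene's start. Itgb4, an integrin gene, was lost 274.5 bp downstream, with 1.16, 0 and 0.54 in enriched mice, against 6.63, 8.79 and 5.43 in normally housed mice. Nudt7 and Galnt9 were lost within 250 bp, with log2 fold changes of -4.34 and -2.99 and adjusted p of 0.00466 and 0.00610 in the authors' deposited table.

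**Figure D3:**
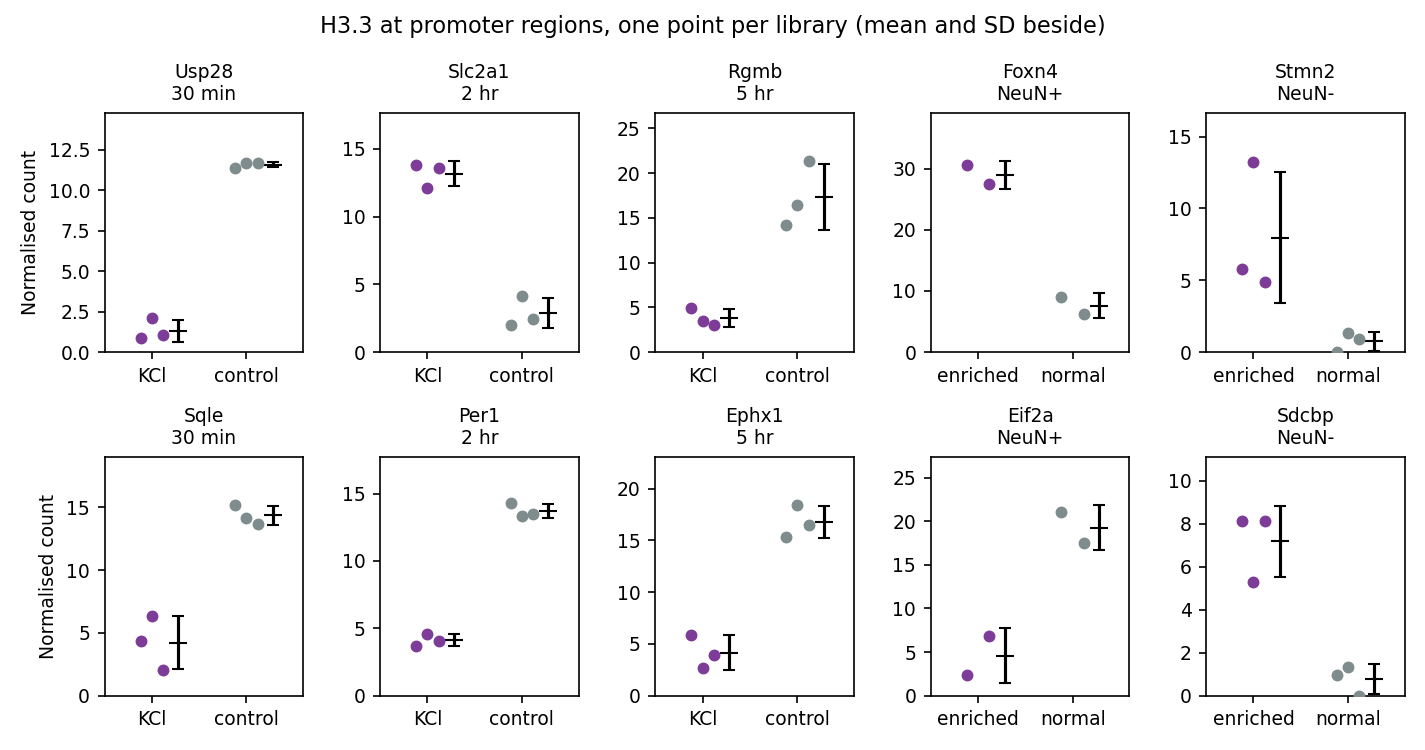
Normalised counts (y axis, each from 0) of 10 named promoter regions, one point per library, with KCl or enriched libraries left of control or normally housed ones, and the mean with its SD as a bar to the right of each group. No library of one group reached the range of the other in any panel, and Stmn2 spread most among enriched libraries (4.88 to 13.21).

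Of 859 genes on 20 lists, 39 (4.54%) had a promoter-labelled region, beside 545 of 22238 protein-coding genes of the annotation (2.45%). The lists were chosen with earlier results of these data known, so the higher share is no finding about them. The list genes held 41 regions, of which 31 were lost and 10 gained, and 28 lay within 3 kb of their own start. The directions within each list are to be read beside the lost share of all listed regions, which was 79.9% at 30 min, 85.6% at 2 hr, 55.8% at 5 hr, 28.2% in NeuN+ nuclei and 29.3% in NeuN- nuclei. No list's direction was tested against these shares. The chromatin list had 6 of its 91 genes, all lost and 5 called. These were Bmi1, Ncor1 and H3f3a at 30 min and Ring1, Smarca2 and Pcgf3 at 2 hr, the tables in which most listed regions were lost. H3f3a, which encodes H3.3 itself, had 6.05, 3.15 and 3.09 in KCl neurons (4.10 ± 1.69), against 20.29, 10.82 and 13.67 in control neurons (14.9 ± 4.86). It was not called, with an adjusted p of 0.0592 in the authors' deposited table, and its region lay 8504.5 bp from the start. Smarca2, an ATPase of BAF remodelling complexes, was near its own start, with 0.92, 2.27 and 6.81 in KCl neurons, against 10.18, 11.66 and 14.73 in control neurons. Its adjusted p in the authors' deposited table was 0.0210.

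Translation genes had 6 regions, all listed as lost, all within 3 kb of their own start and 5 called, at Rps3 (30 min), Rps23 (2 regions) and Rpl18 (2 hr), Mrpl1 (5 hr, not called) and Eif2a (NeuN+ nuclei). Of the 6, 4 were thus in the 30 min and 2 hr tables. Rpl18, a protein of the large ribosomal subunit, was lost in its 5′ untranslated region, with 2.76, 3.03 and 6.81 in KCl neurons, against 14.26, 13.33 and 15.96 in control neurons, at an adjusted p of 0.0139 in the authors' deposited table. Ribosomal protein genes have many processed copies, to which reads could be shared. Ubiquitin and proteasome genes had 4 regions, listed as lost at Usp28 (30 min), Psmd11 (2 hr), Fbxo3 (5 hr) and Ube2r2 (NeuN+ nuclei), and 3 were called. Fbxo3 was not, with an adjusted p of 0.110 in the authors' deposited table. RNA-processing genes had 6 regions, of which 5 were lost, at Hnrnpu (2), Hnrnpc, Cpsf1 and Ewsr1, while Elavl1 was gained in NeuN- nuclei 37659.5 bp from its start.

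Of 25 immediate-early genes 1 had a promoter-labelled region, and of 20 late-response genes 0. Together this was 2.22% of 45 genes, near the 2.45% of protein-coding genes in general. That 1 was Per1, a clock gene, lost at 2 hr 795.5 bp upstream of its start, with 3.68, 4.55 and 4.09 in KCl neurons (4.11 ± 0.435), against 14.26, 13.33 and 13.50 in control neurons (13.7 ± 0.495). Its log2 fold change in the authors' deposited table was -1.74, with an adjusted p of 0.0210. Because changes under 3-fold are not listed, the other immediate-early genes were not shown to be unchanged. Both voltage-gated channel genes with a promoter-labelled region had it gained in NeuN+ nuclei, where 70.1% of all listed regions were called gained. Cacna1a, the pore of P/Q-type calcium channels, had 20.41 and 20.55 in enriched mice (20.5 ± 0.0990), against 3.01 and 7.19 in normally housed mice (5.10 ± 2.96). Cacna2d2, an auxiliary calcium channel subunit, had 23.55 and 19.69 in enriched mice, against 6.02 and 7.19 in normally housed mice. Their adjusted p in the authors' deposited table were 0.0344 and 0.0395. Another Cacna1a region, in the gene body 115591.5 bp from the start, was lost in NeuN+ nuclei. Its means were 5.31 ± 0.247 in enriched and 18.6 ± 2.82 in normally housed mice, with an adjusted p of 0.0379 in the authors' deposited table. Other list genes were Slc2a1, Atp5g2, Cox7a2 and Pfkp for energy metabolism, Cplx2 and Bsn for transmitter release, Negr1 and Robo2 for adhesion and guidance, Gabrg3 for GABA receptors, Cdc27 for the cell cycle and Reln and Celf5 for neurons. Reln, which encodes reelin, was lost at 2 hr 599.5 bp downstream of its start, with 1.84, 5.30 and 1.36 in KCl neurons, against 14.26, 10.00 and 12.27 in control neurons. C1qa, a complement gene of microglia, was gained in NeuN- nuclei beyond its end and not at its start. The astrocyte, oligodendrocyte lineage and endothelial lists had 0 members, as had the postsynaptic list.

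Recurrence between tables was rare in members and in listed regions generally. Across the 10 pairs of tables, 0 of 647 promoter-labelled regions overlapped an H3.3 region of another table, beside 4 of 4651 listed regions (0.086%). Of the 638 genes, 3 had a promoter-labelled region in more than 1 table. Sqle, the squalene epoxidase of cholesterol synthesis, was lost 62.5 bp downstream of its start at 30 min, with 4.32, 6.31 and 2.06 in KCl neurons (4.23 ± 2.13), against 15.21, 14.16 and 13.67 in control neurons (14.3 ± 0.787). At 2 hr it was lost 1657.5 bp upstream, with 1.84, 4.55 and 2.72 in KCl neurons (3.04 ± 1.38), against 13.24, 10.00 and 13.50 in control neurons (12.2 ± 1.95). Adjusted p in the authors' deposited table were 0.0248 and 0.0210. Ercc8, the Cockayne syndrome A protein, was lost 2364.5 bp upstream at 2 hr, where it was called (adjusted p 0.0221 in the authors' deposited table), and listed as lost 449.5 bp downstream at 5 hr, where it was not (0.110). Rnf157, a ubiquitin ligase gene of neurons, was listed as lost at 5 hr, uncalled, with 3.93, 5.27 and 3.97 in KCl neurons and 15.35, 11.28 and 16.49 in control neurons. In NeuN+ nuclei it was gained at another region, with 23.55 and 24.83 in enriched mice, against 6.02 and 7.19 in normally housed mice (adjusted p 0.0257 in the authors' deposited table). An H3.3 region of any kind in another table was listed for 54 of the 638 genes (8.46%), while 298 of the 2289 genes with any listed region (13.0%) had regions in more than 1 table. Within 1 table, 4 names had several members. Hnrnpu and Rps23 at 2 hr and Zfp385b in NeuN+ nuclei had 2 regions each, all lost, and SNORA17, a name given to small nucleolar RNA loci on 4 chromosomes, had 4 in NeuN+ nuclei, all gained.

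The promoter label and the 3 kb limit already bounded the distances given here. Sequence composition did not enter the rule. Of the 514 members within 3 kb of their own start, 281 (54.7%) were centred in introns, 126 (24.5%) between genes, 51 (9.92%) in coding exons and 23 (4.47%) in 5′ untranslated regions. Gained NeuN+ members lay mainly downstream of the start, 99 against 41 upstream, as did lost ones, 47 against 14. At 2 hr the lost members were split 37 downstream and 35 upstream, and in NeuN- nuclei the gained ones 30 and 27. The median absolute distance was 884 bp in gained and 954 bp in lost NeuN+ members, and 1580 bp in gained and 1160 bp in lost 5 hr members.

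GC content separated gained from lost members in some tables. Among members near their own start the median was 54.5% in 140 gained and 47.7% in 61 lost NeuN+ members, 52.5% in 28 gained and 45.0% in 55 lost members at 5 hr, and 52.3% in 11 gained and 47.5% in 72 lost members at 2 hr. At 30 min it was 47.5% in 6 gained and 49.2% in 50 lost members, and in NeuN- nuclei 48.3% in 57 gained and 50.5% in 34 lost members. Over all listed regions the same medians were 53.0% and 46.0% in NeuN+ nuclei, 51.4% and 44.2% at 5 hr and 49.0% and 44.5% at 2 hr, so that the direction of the difference was not particular to promoters. The part of base composition in the counts was not tested. Against the reference genome, the 344 members of 200 bp near their own start had a median of 50.5% GC and 2 CpG. Windows of 200 bp centred on 22235 protein-coding starts had 59.0% and 10 CpG, but windows at the members' own distances from those starts had 47.0% and 2 CpG. The 37 members of 200 bp within 250 bp of a start had 53.5% and 5 CpG.

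**Figure D4:**
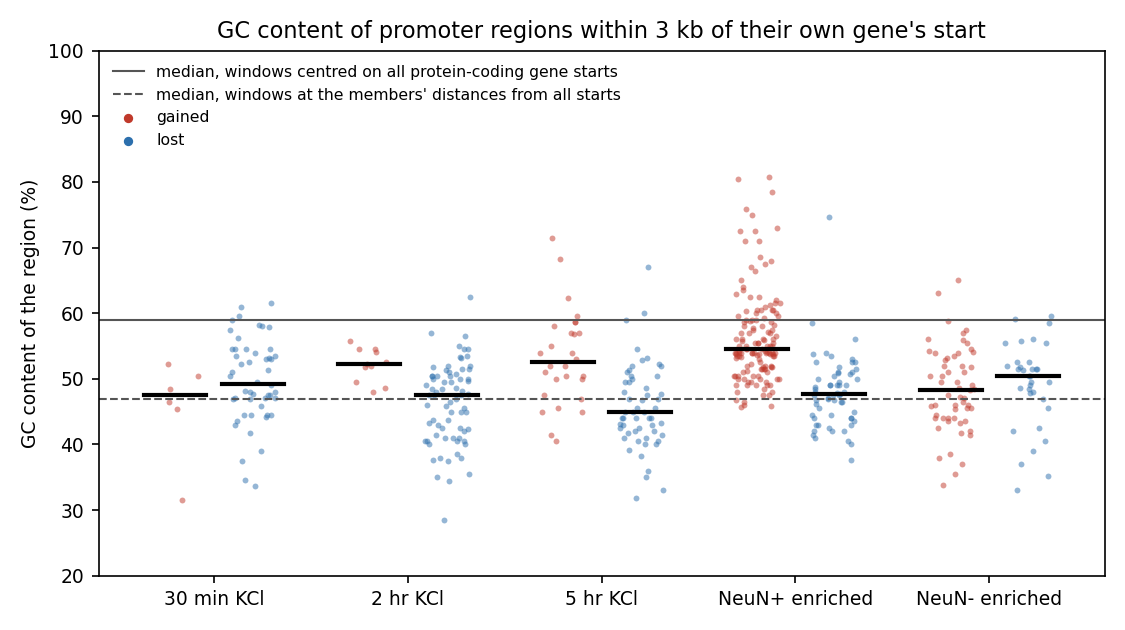
GC content (%, y axis from 20) of each promoter region within 3 kb of its own gene's start, by table, with gained regions in red left of lost ones in blue and the median as a black bar. The solid line is the median of windows centred on all protein-coding starts (59.0%) and the dashed line that of windows at the members' distances from those starts (47.0%). The gap between gained and lost medians was widest at 5 hr (52.5% and 45.0%) and turned round at 30 min and in NeuN- nuclei.

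Motifs were counted as letters on both strands in regions of 200 bp, all tables together unless named. Of 9 motifs counted in 5 tables, the GC box and the CCAAT box, whose gained and lost shares differed most, are given in full. TGACG occurred in 8.47% of gained and 8.98% of lost members, TGANTCA in 6.35% and 7.35%, and TATAAA in 5.29% and 6.53%. The other motifs each occurred in at most 1.63% of either direction. All listed regions were not split by direction here, so no gap is shown to be particular to promoters. The GC box GGGCGG occurred in 14 of 189 gained members (7.41%) and 5 of 245 lost ones (2.04%), against 2.79% of all listed H3.3 regions, 40.0% of windows centred on protein-coding starts and 10.2% of windows at the members' distances. Of the 14, 12 were among 93 gained NeuN+ members (12.9%), beside 1 of 43 lost ones (2.33%). At 30 min it occurred in 0 of 11 gained and 3 of 57 lost members, at 5 hr in 2 of 20 and 1 of 38, and at 2 hr and in NeuN- nuclei in 0 of either direction. The CCAAT box, CCAAT, occurred in 34 of 189 gained members (18.0%) and 78 of 245 lost members (31.8%), against 25.3% of all listed H3.3 regions, 27.4% of windows centred on starts and 23.8% at the members' distances. The shares of gained and lost members cover all members of 200 bp, also those far from their own start. Among the 344 near their own start, both directions together, GGGCGG occurred in 5.23% and CCAAT in 25.9%. Neither letter string marks a bound site.

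The ratio to input that the authors deposited moved with the normalised count in nearly every member. It divides the same group mean by input, so this is no separate support for the directions. Where both ratios were finite, they differed in the direction of the counts in 95 of 100 members at 30 min, 110 of 115 at 2 hr, 83 of 83 at 5 hr, 201 of 201 in NeuN+ nuclei and 126 of 126 in NeuN- nuclei. Over all listed regions the numbers were 427 of 444, 640 of 669, 665 of 667, 1642 of 1642 and 1099 of 1101 in the same order. In CATCH-IT, which captures newly made histones and was done after 5 hr of KCl, a separate list of 53020 regions covered 0.707% of the genome. It overlapped 12 of the 647 members (1.85%), and 0 of the 83 members at 5 hr. A share of regions is not the same measure as a share of bases, and the overlap of all listed H3.3 regions is not given here. Directions were mixed among the 12. Bnip2, lost at 2 hr, was listed as gained in CATCH-IT. Matn2, Mcf2l, Gm14319, Gm4876 and Cyb5r3 also went opposite ways in H3.3 and CATCH-IT. Bre, Spg20, Hrct1, Ighv1-23 and Neurl1a went the same way, and mt-Nd6 met CATCH-IT regions of both directions. A promoter-labelled CATCH-IT region was present at 79 of the 545 protein-coding genes with a promoter-labelled H3.3 region (14.5%), beside 2389 of 22238 protein-coding genes (10.7%), and this difference was not tested.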

How the data were processed

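Chromatin of mouse neurons and hippocampal nuclei was immunoprecipitated for H3.3 and sequenced, and the authors deposited 1 table of listed regions per comparison. The submitters' processing notes name Bowtie 0.12.7, bedtools 2.16.2 and mm9. No caller of regions is named in the sources used here. For every region the authors deposited normalised counts of each library (a coverage signal), their mean per group, a ratio of that mean to input, a log2 fold change, and a p-value with its adjusted form, all used as they stood. The 30 min control group had 4 labelled libraries, one a repeat, and 3 values. Normalisation was within a table, so levels were not compared across tables.

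Members were rows with a promoter label. No new test was run, because listing had used the same libraries. Shares had exact (Clopper-Pearson) intervals. Distances were recomputed from the gene's coordinates and strand, and starts, exons and sequences came from GENCODE vM1 and the NCBIM37 genome (mm9). The distance functions were tested on simulated data. Named regions were the 4 gained and 4 lost of smallest adjusted p per table with library values apart, genes in more than 1 table, list genes, and those nearest to a start; other members within 250 bp, Itgb4 and the 6 sequences were chosen after their values were seen. Members and lists were chosen with earlier results of these data known. Alternatives were a threshold of 0.01, promoter classes within 1 kb, 1 region per gene, ratios to input, regions with no mean of 0, leaving out each library, and, added after seeing the data, the strand-aware and GENCODE definitions. Intervals and floors cover counting error only. Software was Python 3.11.15, pandas 2.3.3, numpy 2.4.6, scipy 1.17.1, pysam 0.24.0 and matplotlib 3.10.9.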

Additional observations from a re-analysis of the deposited data

How the results depend on the processing

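In no table did the more frequent direction of members change under any alternative. By the ratios to input, 5 single members at 30 min and 5 at 2 hr went the other way. Leaving out a library could not reverse a region, since library values of the groups did not overlap in any listed region. With an adjusted p of at most 0.01 in place of 0.05, called members numbered 0 gained and 4 lost at 30 min, 0 and 3 at 2 hr, 0 lost at 5 hr, and 1 gained and 0 lost in NeuN+ nuclei. With promoter classes within 1 kb alone, which leaves fewer regions by construction, they numbered 5 gained and 41 lost at 30 min, 4 and 48 at 2 hr, 1 lost at 5 hr, 73 and 31 in NeuN+ nuclei and 49 and 20 in NeuN- nuclei, the gained share in NeuN- nuclei was 71.0%, and 0 genes recurred. Members within 3 kb of their own start gave 6 gained and 49 lost calls at 30 min, 72 lost at 2 hr and 34 lost in NeuN- nuclei. Any listed region within 3 kb of a GENCODE vM1 start gave 8 gained calls at 30 min, 2 gained calls at 5 hr and a 5 hr gained share of 45.5%. Overlap of regions by 1 bp in place of gene names left 0 shared.

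Leaving out each library in turn and asking for a 3-fold difference of the means gave 11 to 15 gained and 70 to 82 lost calls at 30 min, 11 to 13 and 88 to 104 at 2 hr, 0 and 2 at 5 hr, 95 to 128 and 38 to 54 in NeuN+ nuclei and 82 to 85 and 51 to 53 in NeuN- nuclei. The gained shares ran over 11.3% to 16.3%, 9.91% to 12.9%, 30.7% to 37.3%, 64.3% to 77.1% and 60.7% to 62.5% in the same order. The NeuN+ extremes of 38 lost calls and 77.1% came without enriched library 1. The adjusted p was kept as deposited and was not computed anew without a library. These counts therefore show the fold limit alone and do not test the calls. One region per gene (15 results), ratios to input (5) and leaving out regions with a mean of 0 (5) moved no result by more than its limit. No paired analysis was possible because the packed library values carry no library names. Depth limits single regions most in NeuN- nuclei, where lost members had a median of 1 read per enriched library.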
